A study of Mus musculus with 13 samples.

Results

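The LPS response of total RNA was followed in RAW 264.7 cells, a mouse macrophage line, for a set of RNAs chosen for their presence in IPs of P23. P23, encoded by Ptges3, is an HSP90 co-chaperone and an enzyme of prostaglandin synthesis that also binds RNA. The input, the RNA of the extract before any immunoprecipitation (IP), was sequenced once from untreated cells (0 h) and once after 2 h with LPS at 10 ng/ml. All 52 RNAs of the deposited table were taken, and the table holds no other RNA. The study chose them by comparing P23 IPs with IPs of a luciferase antibody (LUC) in untreated cells, so the inputs played no part in the choice. The same rows were available in 11 IP libraries, namely 3 per antibody from untreated cells and, after LPS, 3 with P23 and 2 with LUC. The cells carried no genetic change that the labels name, and all were UV-crosslinked before a cytoplasmic extract was prepared, so nuclear RNA may be underrepresented in every library.

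LPS, a cell wall component of Gram-negative bacteria, is sensed by Toll-like receptor 4. Its signaling activates NF-kappaB and MAP kinases, and the mRNAs of early response genes accumulate within hours while mRNAs of the resting cell decline. Many early response mRNAs are short-lived and carry AU-rich elements in the 3′UTR, which are bound by proteins that control decay and translation. Of the usual LPS response genes the table holds Pim1, and of the macrophage markers Cd101 and Tnfrsf11a had counts in both inputs. Cytokine mRNAs and markers of T cells, B cells, fibroblasts or epithelium are not among its rows and were not analysed here.

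Levels are given as normalized counts, that is raw counts divided by the size factor of the library. The size factors were 6.10 and 5.65 for the inputs of 0 h and 2 h and between 0.461 and 1.02 for the IPs, so an RNA has several times more raw counts in an input than in an IP at the same normalized count. Summed over the table, the raw counts were 24335 before and 25437 after LPS. Since each time point has a single input library, the ratio of the inputs has no replicate check, and in bulk RNA fewer cells with an RNA and less RNA per cell cannot be told apart. Each log2 ratio of 2 h over 0 h is therefore given with an exact 95% Clopper-Pearson interval, which covers counting error only.

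Most RNAs were at a similar level in both inputs, and Pim1 mRNA stood far above all others. The median log2 ratio was -0.01 over the 51 RNAs with a ratio or a bound, with quartiles of -0.30 and 0.27, and 36 RNAs lay within 0.5 of 0. Pim1 mRNA and Mir22hg, the host RNA of miR-22, were more than 2-fold higher at 2 h, which is 3.92% of the 51 RNAs. Lfng and Prr5 mRNAs were more than 2-fold lower, again 3.92%. This lower count depended on the scale: it was 6 when the libraries were scaled to Gapdh and Ppia or to summed counts, and 1 with an equal median over the table or a pseudocount of 1. The interval lay wholly above 0 for 14 RNAs, wholly below 0 for 12 and across 0 for 25. The RNAs with few counts spread most, with a median size of the log2 ratio of 0.62 for the 17 RNAs of lowest normalized count, 0.32 for the 17 in the middle and 0.14 for the 17 of highest normalized count.

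**Figure D1:**
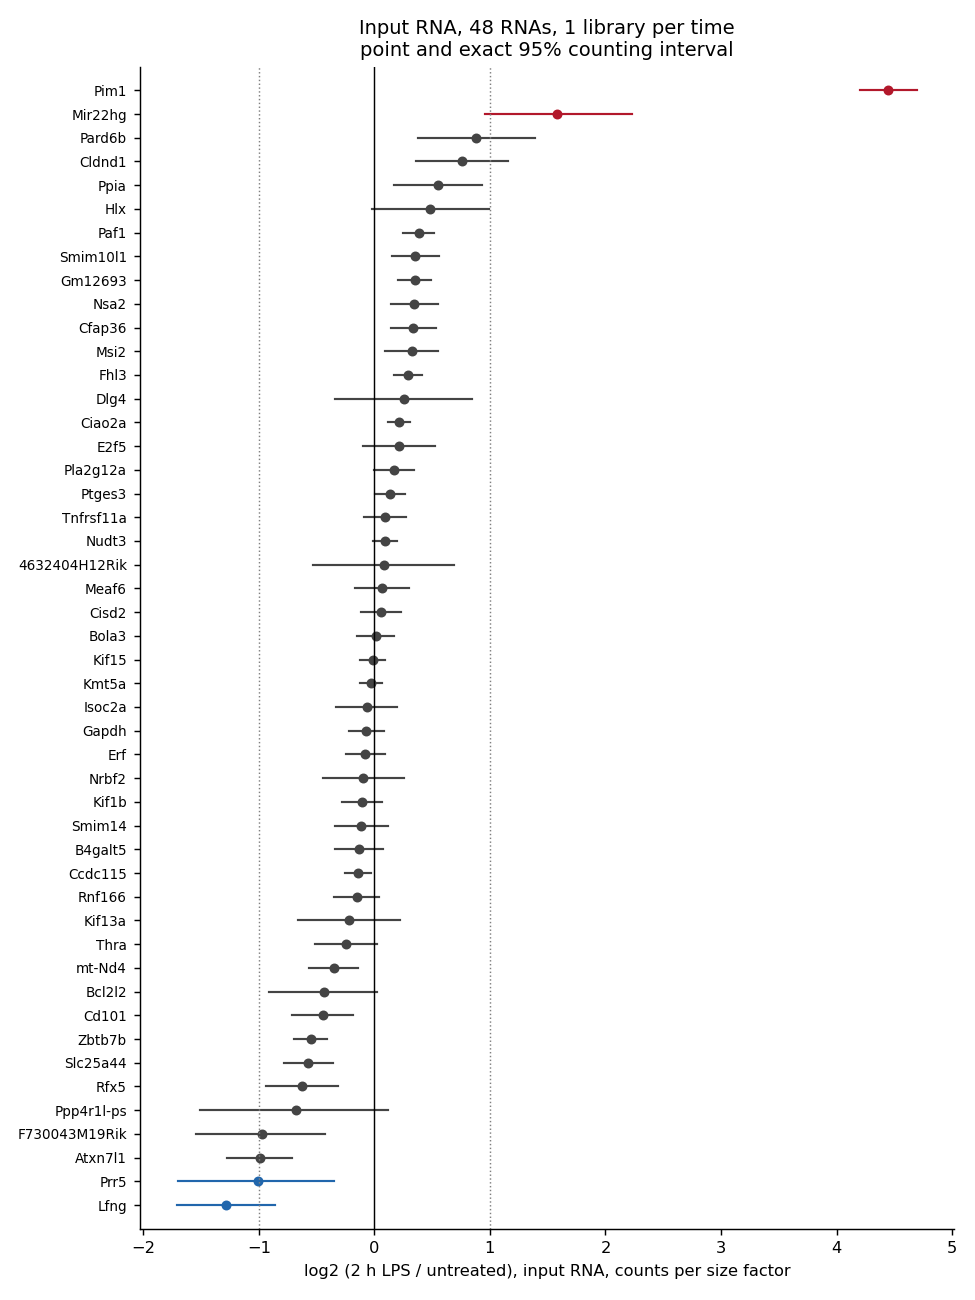
Log2 ratio of input RNA at 2 h of LPS over untreated (horizontal axis, counts per size factor) for 48 RNAs with more than 1 count in each input, ordered by their ratio; bars are exact 95% counting intervals, dotted lines mark a 2-fold difference, and RNAs past it are red (higher) or blue (lower). Pim1 mRNA, at 4.45, lies apart from all other RNAs, and the interval of Mir22hg and those of Lfng and Prr5 mRNAs reach across the 2-fold lines.

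Pim1 encodes a serine/threonine kinase that promotes survival and growth and is induced by cytokines and LPS. Its raw counts were 142 in the untreated input and 2866 after LPS, which is 23.3 and 507 normalized counts. This is a 21.8-fold higher level and a log2 ratio of 4.45 (95% interval of 4.20 to 4.70). Pim1 mRNA took 0.584% of the summed counts of the table before LPS and 11.3% after it. The gene (ENSMUSG00000024014) lies on chromosome 17 of GRCm38 from 29490753 to 29496112, and Gm26885 on the other strand overlaps 488 bases of its exons, whose reads cannot be assigned by strand here.

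The IPs showed the same direction. Pim1 mRNA was at 52.1, 24.6 and 38.4 normalized counts in the 3 LUC IPs of 0 h and at 591 and 554 in both LUC IPs of 2 h. In the P23 IPs it was at 77.0, 51.3 and 60.9 at 0 h and at 556, 757 and 778 at 2 h. Every library of 2 h was above every library of 0 h with either antibody. The log2 fold change, averaged over both antibodies, was 3.71 (standard error, SE, 0.16; quasi-likelihood test of edgeR, adjusted p = 1.3e-12).

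Pim1 is shown with sequence because its ratio set it apart. In the 3′UTR of Pim1 mRNA (1365 bases in GENCODE M21) the pentamer ATTTA, the core of AU-rich elements, was found 5 times, and 4 of these overlap in 1 run that begins at base 950 of the 3′UTR. The run, written as DNA, is in capitals.
Pim1 3′UTR site: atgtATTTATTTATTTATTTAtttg
The heptamer TATTTAT was found in the 3′UTRs of 14 of the 44 members with an annotated 3′UTR (31.8%) and in 26.5% of 20747 mouse genes. Pard6b and Cldnd1, the mRNAs with the next highest ratios, each held 2 heptamers, but so did Isoc2a and Smim14 mRNAs at log2 ratios of -0.07 and -0.11. Lfng mRNA, the lowest, held 1. Examples from each side, with the heptamer in capitals, are as follows.
Cldnd1 3′UTR site: cttaaaaatctTATTTATttactccatta
Pard6b 3′UTR site: agggggacagtTATTTATttcttaacctt
Lfng 3′UTR site: ccttagtactgTATTTATgccttccagta
A match is a description of the letters and no measured binding site.

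The stretch before the Pim1 start held 6 GC boxes, the hexamer GGGCGG on either strand, which is bound by factors of the Sp family. It is shown because the change of Pim1 was the largest of the table. It runs from chr17:29490535-29490752 (RefSeq promoter table, GRCm38.p6, plus strand, 218 bases before the first annotated start), has 83% G and C, and the GC boxes are in capitals.
Pim1 promoter: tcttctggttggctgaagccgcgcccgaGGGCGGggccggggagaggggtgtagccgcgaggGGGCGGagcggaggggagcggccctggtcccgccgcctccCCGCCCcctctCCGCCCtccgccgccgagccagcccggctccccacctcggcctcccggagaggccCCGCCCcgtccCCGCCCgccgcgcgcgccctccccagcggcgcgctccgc
Counted per promoter of 300 bases, GC boxes were in 45 of 65 promoters of the 43 members with an entry (69.2%) and in 35.7% of 32851 mouse promoters. The mouse promoters were not limited to genes expressed in these cells, so none of these shares is a matched comparison. The CCAAT box, searched as CCAAT on either strand, was in 24 of 65 (36.9%) against 37.4%, the AP-1 site TGANTCA in 2 of 65 (3.08%) against 7.81%, the TATA box TATAAA in 1 of 65 (1.54%) against 13.6%, and the kappaB motif in 10 of 65 (15.4%) against 8.46%. Of the 4 RNAs past 2-fold none was among the 9 members with a kappaB match.

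Mir22hg, a non-coding RNA whose transcript carries the precursor of miR-22, was the other RNA with a more than 2-fold higher level. Its raw counts were 30 before and 83 after LPS, or 4.92 and 14.7 normalized counts, a log2 ratio of 1.58 (95% interval of 0.96 to 2.23). In the LUC IPs it was at 2.17, 10.4 and 10.4 normalized counts at 0 h and at 59.7 and 53.3 at 2 h. In the P23 IPs it was at 16.2, 24.2 and 22.6 at 0 h and at 63.7, 57.2 and 48.1 at 2 h. No library of 0 h reached the level of any IP library of 2 h, and the mean change over both antibodies was a log2 of 2.04 (SE 0.20, edgeR, adjusted p = 2.8e-07). Mir22hg (ENSMUSG00000085148, chromosome 11, 75461539 to 75466676) shares 301 exon bases with Tlcd2 and Mir22 on its own strand.

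The miRNAs made from the host RNA were not measured in these libraries. Their RefSeq sequences (GRCm38.p6) are given with the seed, bases 2 to 8, in capitals, since the seed sets which mRNAs a miRNA pairs with. They lie at chr11:75463734-75463755 and chr11:75463772-75463793 on the plus strand.
mmu-miR-22-5p: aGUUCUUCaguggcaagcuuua
mmu-miR-22-3p: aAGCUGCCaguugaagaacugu
The 250 bases before the Mir22hg start (chr11:75461289-75461538, plus strand) differ in composition from those of Pim1, with 52.4% G and C, 1 GC box and 2 CCAAT boxes, all in capitals.
Mir22hg promoter: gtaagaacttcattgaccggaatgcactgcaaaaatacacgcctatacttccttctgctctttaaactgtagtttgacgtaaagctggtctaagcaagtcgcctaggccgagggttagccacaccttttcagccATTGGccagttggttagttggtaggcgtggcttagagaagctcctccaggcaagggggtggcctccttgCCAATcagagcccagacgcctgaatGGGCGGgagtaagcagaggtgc

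Lfng mRNA, which encodes a Golgi glycosyltransferase that modifies Notch receptors (chromosome 5, 140607320 to 140615545), had the lowest ratio. Its raw counts were 173 before and 66 after LPS, or 28.4 and 11.7 normalized counts, a 2.43-fold lower level and a log2 ratio of -1.28 (95% interval of -1.71 to -0.86). In the LUC IPs it was at 63.0, 37.5 and 54.0 normalized counts at 0 h and at 28.9 and 25.2 at 2 h. In the P23 IPs it was at 91.8, 77.5 and 93.3 at 0 h and at 31.9, 29.9 and 30.6 at 2 h, so the time points did not overlap with either antibody. The mean log2 fold change of the IPs was -1.20 (SE 0.16, edgeR, adjusted p = 6.5e-06). The other mRNA of a Golgi glycosyltransferase, B4galt5, had a log2 ratio of -0.13 in the inputs (95% interval of -0.34 to 0.08).

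Prr5, a subunit of the kinase complex mTORC2 (chromosome 15, 84669620 to 84703673), was the other mRNA with a more than 2-fold lower level. It had 63 and 29 raw counts, or 10.3 and 5.13 normalized counts, a log2 ratio of -1.01 (95% interval of -1.70 to -0.35), which was just short of 2-fold with an equal median and -0.89 with a pseudocount of 1. In the IPs its mRNA fell by 1.23 on the log2 scale (SE 0.24, edgeR, adjusted p = 0.00048). Bcl2l2, an anti-apoptotic protein of the Bcl-2 family and the third member of the survival group beside Pim1 and Prr5, had 98 and 67 raw counts and a log2 ratio of -0.44 (95% interval of -0.91 to 0.02). The 3 members of the group thus lay on both sides of 0.

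Just inside the 2-fold lines lay a pair of neighboring genes on chromosome 12. Atxn7l1 encodes a relative of ataxin-7, a subunit of the SAGA acetyltransferase complex, and F730043M19Rik is annotated as a non-coding RNA of a bidirectional promoter. Atxn7l1 mRNA had 332 raw counts before and 155 after LPS, or 54.4 and 27.4 normalized counts, a log2 ratio of -0.99 (95% interval of -1.27 to -0.71). F730043M19Rik had 87 and 41 raw counts, or 14.3 and 7.25 normalized counts, a log2 ratio of -0.98 (95% interval of -1.55 to -0.42). Both RNAs were thus close to 2-fold lower in the same pair of libraries.

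Atxn7l1 (33147693 to 33373185, plus strand) and F730043M19Rik (33111711 to 33147597, minus strand) point away from each other. The 99 bases between their RefSeq starts are shown because both transcripts begin at their edges. They lie at chr12:33147587-33147685 (GRCm38.p6, plus strand) and have 81.8% G and C. These 99 bases hold neither a GC box nor a CCAAT box, so no letter is in capitals. The lack of GC boxes holds for this stretch only. In the longer promoter entries counted above, both genes were among the members with a GC box, and neither had a CCAAT box.
F730043M19Rik to Atxn7l1: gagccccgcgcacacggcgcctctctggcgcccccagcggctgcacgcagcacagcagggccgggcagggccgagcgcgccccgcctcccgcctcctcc
In the IPs, Atxn7l1 mRNA was at 99.9, 82.8 and 83.1 normalized counts with LUC at 0 h and at 56.1 and 30.9 at 2 h, and with P23 at 132, 131 and 149 and then at 39.8, 51.7 and 61.3. Its mean log2 fold change was -1.23 (SE 0.15, edgeR, adjusted p = 3.3e-06). F730043M19Rik was at 32.6, 31.1 and 30.1 with LUC at 0 h and at 32.5 and 14 at 2 h, and with P23 at 54.0, 56.4 and 49.1 and then at 30.3, 24.5 and 23.3. The LUC libraries of F730043M19Rik overlapped between the time points, those with P23 did not, and the mean log2 fold change was -0.75 (SE 0.19, edgeR, adjusted p = 0.0034). This last call was lost without LUC 2 h replicate 2, at an adjusted p of 0.055 and a log2 fold change of -0.48.

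**Figure D2:**
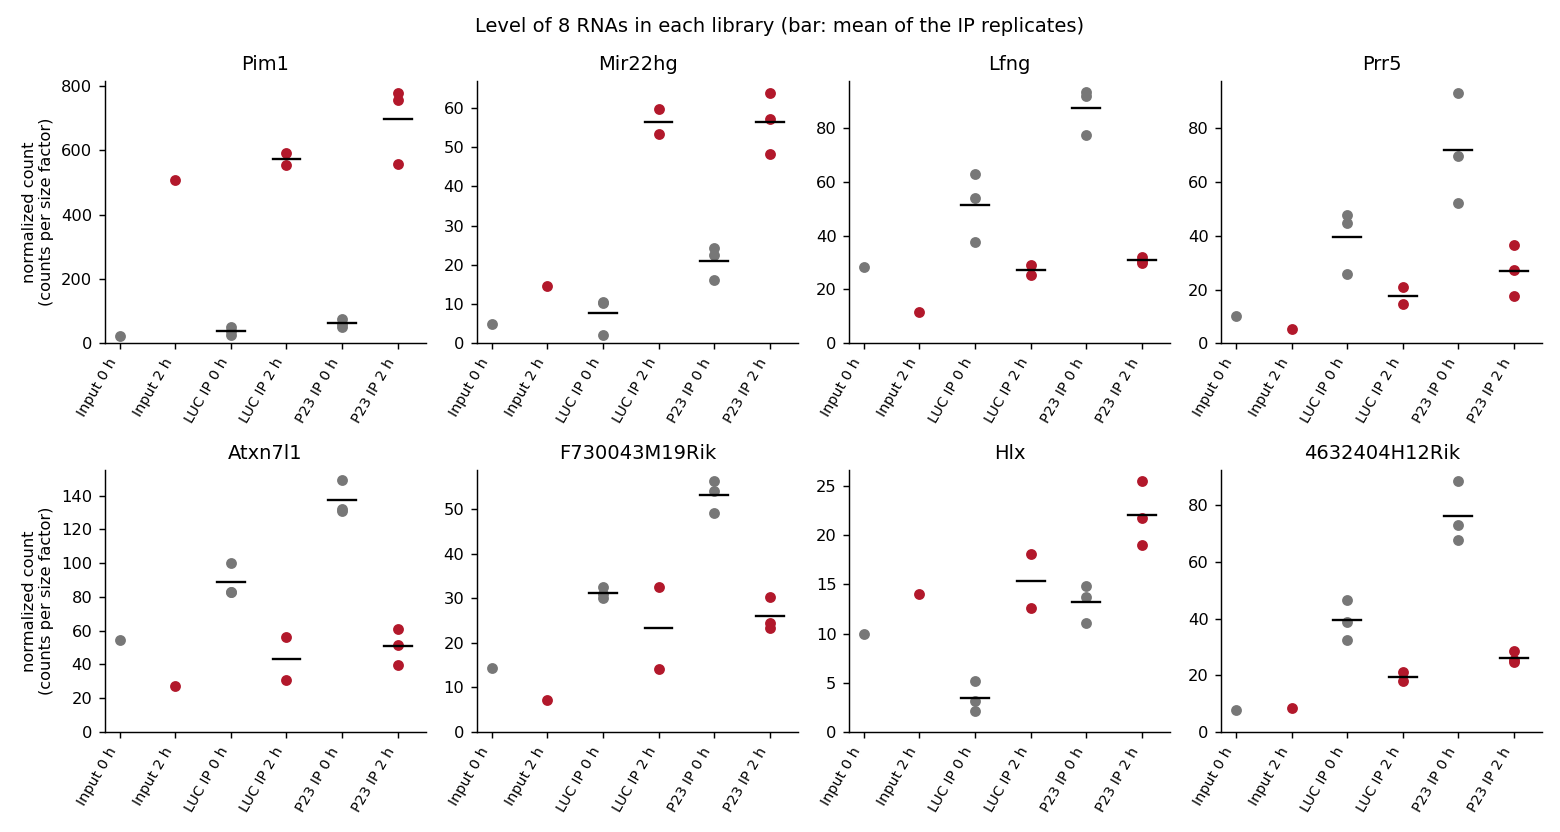
Normalized counts (raw counts per size factor, linear axes from 0) of 8 RNAs in each input, LUC IP and P23 IP library; grey points are untreated cells, red points are cells at 2 h of LPS, and bars are means of the IP replicates (2 or 3 libraries). Pim1, Mir22hg and Hlx were higher and Lfng, Prr5, Atxn7l1 and F730043M19Rik lower at 2 h in the inputs, while 4632404H12Rik, at 7.87 and 8.32 in the inputs, was lower at 2 h in the IPs.

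The mRNAs of Cd101 and Tnfrsf11a, which mark cells of the macrophage and osteoclast lineage, differed in their ratio. Cd101, a surface glycoprotein of myeloid cells, had a log2 ratio of -0.45 in the inputs (95% interval of -0.71 to -0.19) but 0.02 in the IPs (adjusted p = 0.94 from edgeR). Tnfrsf11a, the receptor RANK that drives osteoclast formation, had a log2 ratio of 0.09 (95% interval of -0.09 to 0.28).

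The 7 mRNAs of the transcription factor group spread from -0.62 to 0.48. Rfx5, which binds the promoters of MHC class II genes, had 233 and 140 raw counts and a log2 ratio of -0.62 (95% interval of -0.94 to -0.32). Zbtb7b, a zinc finger factor, had 1075 and 679 raw counts, or 176 and 120 normalized counts, a log2 ratio of -0.55 (95% interval of -0.69 to -0.41). The ratios of Thra, a thyroid hormone receptor, and Erf, an ETS repressor, were -0.25 and -0.08, with intervals across 0. On the other side, Fhl3, a LIM domain protein, was at 0.29 (95% interval of 0.17 to 0.41) and E2f5 at 0.21 (95% interval of -0.10 to 0.52). Hlx, a homeobox factor, had 61 and 79 raw counts and a log2 ratio of 0.48 (95% interval of -0.02 to 0.99). The counts of Hlx in the inputs leave both no difference and a nearly 2-fold higher level within the interval. Its IP values rest on few raw counts. With LUC these were 1, 4 and 3 at 0 h and 10 and 9 at 2 h. With P23 they were 11, 11 and 14 and then 16, 16 and 13. The log2 fold change of Hlx was 2.00 with LUC (adjusted p = 0.0051 from edgeR) and 0.74 with P23 (adjusted p = 0.043 from edgeR).

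The mRNAs of polarity, scaffold and membrane proteins had the highest median of the role groups, 0.75 over 3 mRNAs, against -0.01 for the table. Pard6b, a subunit of the PAR polarity complex (chromosome 2, 168081004 to 168101203), had 54 and 92 raw counts, or 8.85 and 16.3 normalized counts, a log2 ratio of 0.88 (95% interval of 0.38 to 1.39). The table names this row by the identifier and description of Pard6b. Cldnd1, a claudin-domain membrane protein (chromosome 16, 58727910 to 58734251), had 87 and 136 raw counts and a log2 ratio of 0.75 (95% interval of 0.36 to 1.16). Dlg4, a scaffold of synapses, was at 0.25 with an interval from -0.34 to 0.85 at 48 and 53 raw counts. In the mean of both IPs Cldnd1 mRNA rose by 0.88 on the log2 scale (SE 0.14, edgeR, adjusted p = 4.7e-05) and Pard6b mRNA by 0.43 (SE 0.12, edgeR, adjusted p = 0.0073), whereas Dlg4 mRNA fell by 0.55 (SE 0.18, edgeR, adjusted p = 0.016, lost without LUC 2 h replicate 1 at 0.079). For Pard6b mRNA the rise passed with LUC only, at 0.73 (adjusted p = 0.0080 from edgeR). With P23 it was at 0.13 (adjusted p = 0.46 from edgeR).

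**Figure D3:**
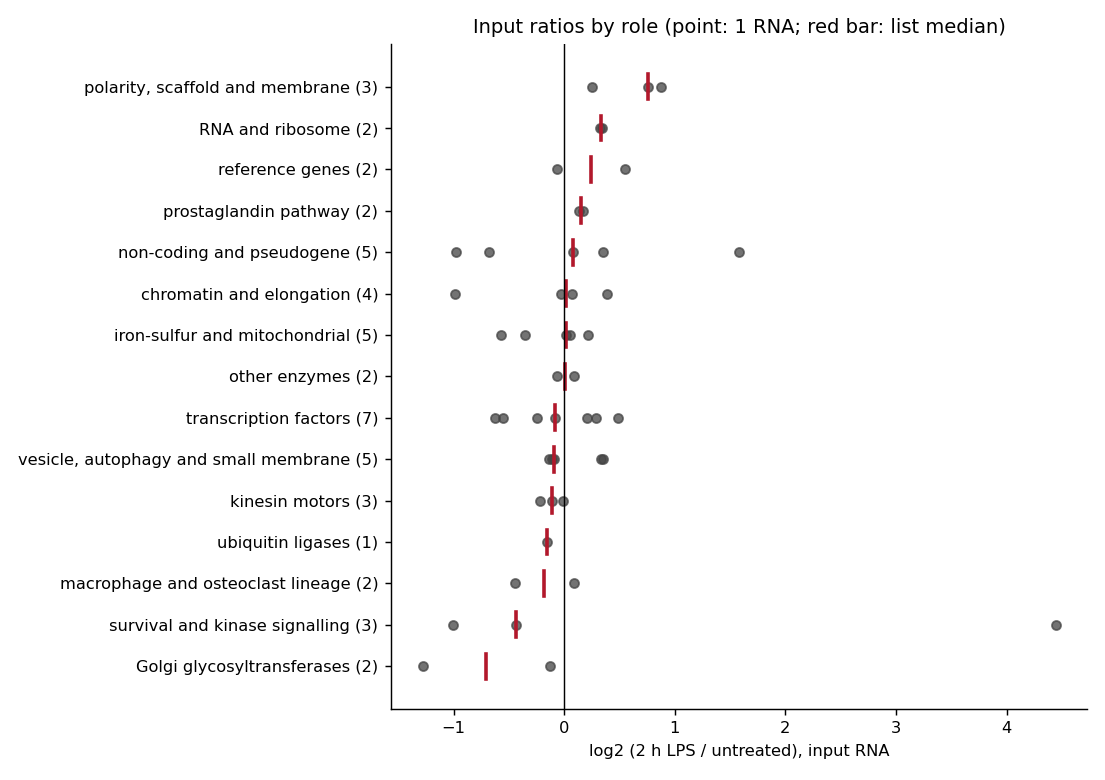
Log2 ratio of input RNA at 2 h of LPS over untreated (horizontal axis) by role group; each point is 1 RNA with a ratio, red bars are group medians, and the number of RNAs is in brackets. The polarity, scaffold and membrane group lies highest at a median of 0.75, the Golgi glycosyltransferases lowest at -0.71 over 2 mRNAs, and the survival group spans from -1.01 to 4.45; the non-coding group is drawn without Gm16153 and Gm15559, and 48 RNAs are shown in all.

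The prostaglandin pathway mRNAs were at similar levels. Ptges3 mRNA, which encodes P23 itself, had 956 and 973 raw counts, or 157 and 172 normalized counts, a log2 ratio of 0.14 (95% interval of 0.01 to 0.27), and 0.14 in the IPs (adjusted p = 0.37 from edgeR). The sign of its input ratio turned when the libraries were scaled to Gapdh and Ppia (-0.10) or to summed counts (-0.04). Pla2g12a, a secreted phospholipase, was at 0.17 (95% interval of -0.00 to 0.34).
The 3 kinesin mRNAs, Kif15, Kif1b and Kif13a, lay between -0.22 and -0.01 with all intervals across 0. The tightest of these was that of Kif15, a spindle motor, from -0.12 to 0.09. In the IPs Kif15 was at 0.03 (adjusted p = 0.91 from edgeR). Kif1b was at -0.48 (SE 0.16, edgeR, adjusted p = 0.016) and Kif13a at -0.93 (SE 0.25, edgeR, adjusted p = 0.0049). This mean for Kif13a joins -1.57 with P23 (adjusted p = 0.00031 from edgeR) and -0.28 with LUC (adjusted p = 0.65 from edgeR). The test of the difference between both changes did not pass for Kif13a (adjusted p = 0.28 from edgeR). The calls of Kif1b and Kif13a were lost without LUC 2 h replicate 2 (adjusted p = 0.15 and 0.052 from edgeR).

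The mRNAs used as reference genes did not share 1 ratio. Gapdh, a glycolytic enzyme, had 744 and 657 raw counts and a log2 ratio of -0.07 (95% interval of -0.22 to 0.08). Ppia, a prolyl isomerase, had 104 and 141 raw counts and a log2 ratio of 0.55 (95% interval of 0.17 to 0.93). Both have many pseudogene copies, and only uniquely mapped reads were counted, so these counts cover a part of each mRNA. In the IPs Gapdh was at -0.33 (adjusted p = 0.049 from edgeR) and Ppia at 0.19 (adjusted p = 0.41 from edgeR), and the call of Gapdh was lost without any of 8 single libraries (adjusted p up to 0.23) and on 3 of the other scales.

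Among the 4 mRNAs of chromatin and elongation proteins, Paf1, a subunit of the elongation complex of that name, was at 0.38 (95% interval of 0.25 to 0.52) from 846 and 1023 raw counts. Kmt5a, a histone H4 methyltransferase, and Meaf6, a subunit of acetyltransferase complexes, were at -0.03 and 0.07. Msi2, an RNA-binding protein, and Nsa2, a factor of large ribosomal subunit assembly, were at 0.32 and 0.35, both with intervals above 0.
Of 5 iron-sulfur and mitochondrial mRNAs, Slc25a44, a mitochondrial carrier, was at -0.57 (95% interval of -0.79 to -0.36) and mt-Nd4, a subunit of complex I encoded in mitochondrial DNA, at -0.35 (95% interval of -0.56 to -0.14). Ciao2a, an iron-sulfur assembly factor, was at 0.21 (95% interval of 0.12 to 0.31), and Bola3 and Cisd2 were at 0.01 and 0.06.
The remaining mRNAs were closer to 0. Among 5 mRNAs of vesicle, autophagy and small membrane proteins, Smim10l1 and Cfap36 were at 0.35 and 0.34 with intervals above 0, Ccdc115 at -0.14 with an interval below 0, and Smim14 and Nrbf2 at -0.11 and -0.10. The ubiquitin ligase mRNA Rnf166 was at -0.15, and the enzyme mRNAs Nudt3 and Isoc2a at 0.09 and -0.07, all with intervals across 0.

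The 7 non-coding and pseudogene RNAs held both extremes outside the mRNAs, Mir22hg at 1.58 and F730043M19Rik at -0.98. Gm12693, annotated as a processed pseudogene of 1 exon, was at 0.35 (95% interval of 0.21 to 0.49). Ppp4r1l-ps, annotated as a transcribed pseudogene, was at -0.68 (95% interval of -1.51 to 0.12). Whether the reads of Gm12693 came from its own transcript was not tested. Gm16153 had 6 raw counts in the untreated input and 0 after LPS. With a floor of 3 counts in place of the 0 its level was 1.85-fold lower, a value set by the floor and not by the 95% interval. It had 3, 12 and 15 raw counts in the P23 IPs of 0 h, 1, 1 and 0 in the LUC IPs of 0 h, and 0 in all 5 IPs of 2 h. Its exons overlap those of Rmnd1 on the other strand. Gm15559 had 1 raw count in each input, which allows no ratio.

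The lincRNA 4632404H12Rik (chromosome 3, 89767511 to 89773240, 1 exon) showed a difference between inputs and IPs. It had 48 and 47 raw counts in the inputs, or 7.87 and 8.32 normalized counts, a log2 ratio of 0.08 (95% interval of -0.53 to 0.69). With LUC it was at 32.6, 38.8 and 46.8 normalized counts at 0 h and at 18.1 and 21 at 2 h, and with P23 at 72.9, 88.6 and 67.8 and then at 25.5, 28.6 and 24.8. All IP libraries of 2 h thus lay below all of 0 h with the same antibody, and the mean log2 fold change was -1.28 (SE 0.17, edgeR, adjusted p = 5.4e-06). The IP change lay below the counting interval of the inputs, but with 1 input library each the difference between both changes could not be tested.

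The 11 IP libraries served as a replicated comparison, since none of them entered the ratio of the inputs. Whether an input and an IP came from the same culture or extract was not tested, so both may not be independent. An IP level depends on recovery as well as on the RNA in the extract, and the study cites lower RNA binding of P23 after LPS. Changes of recovery and of RNA level were not told apart in the IPs, and averaging over antibodies does not separate them. The rows were chosen for high P23 and low LUC values at 0 h, which favors a lower change with P23 and a higher change with LUC, so the change was averaged with equal weight over both antibodies. In edgeR's test 11 RNAs were higher at 2 h (21.2% of 52) and 22 lower (42.3%), and the median log2 fold change was -0.21. With the libraries set to TMM factors or to an equal median over the table, 15 and 14 RNAs were higher and 14 and 16 lower. With LUC alone 8 were higher (15.4%) and 6 lower (11.5%), and with P23 alone 6 were higher (11.5%) and 21 lower (40.4%). With LUC alone, 5 were higher and 10 lower when scaled to Gapdh and Ppia, and 10 and 14 with summed counts. With P23 alone, 13 and 15 passed at an equal median, 8 and 11 when scaled to Gapdh and Ppia, and 14 and 15 with TMM.

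All 11 RNAs that rose in the mean of both IPs had an input ratio above 0, and for 8 of them the interval of the inputs lay above 0. They were Pim1, Mir22hg, Hlx, Cldnd1, Cisd2, Pard6b, E2f5, Fhl3, Nsa2, Ciao2a and Smim10l1. Over the table, 25 of 51 input ratios or bounds were above 0 and 26 below, with 14 intervals above 0 and 12 below. Of the 22 that fell, 21 had an input ratio, which was below 0 for 17 of them, and for 9 of these the interval lay below 0. Another 4 fell in the IPs with an input ratio above 0, among them 4632404H12Rik, Dlg4 and Nudt3. Of all 33 calls, 16 were kept without each of the 11 libraries in turn, among them those of Pim1, Mir22hg, Hlx, Cldnd1, Cisd2 and Pard6b and of Atxn7l1, Lfng, Prr5, Rfx5 and Zbtb7b. For the 14 RNAs whose input interval lay above 0, 8 rose in the IPs, and for the 11 with a ratio and an interval below 0, 9 fell. Of all 52 RNAs, 21.2% rose and 42.3% fell in the IPs.

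**Figure D4:**
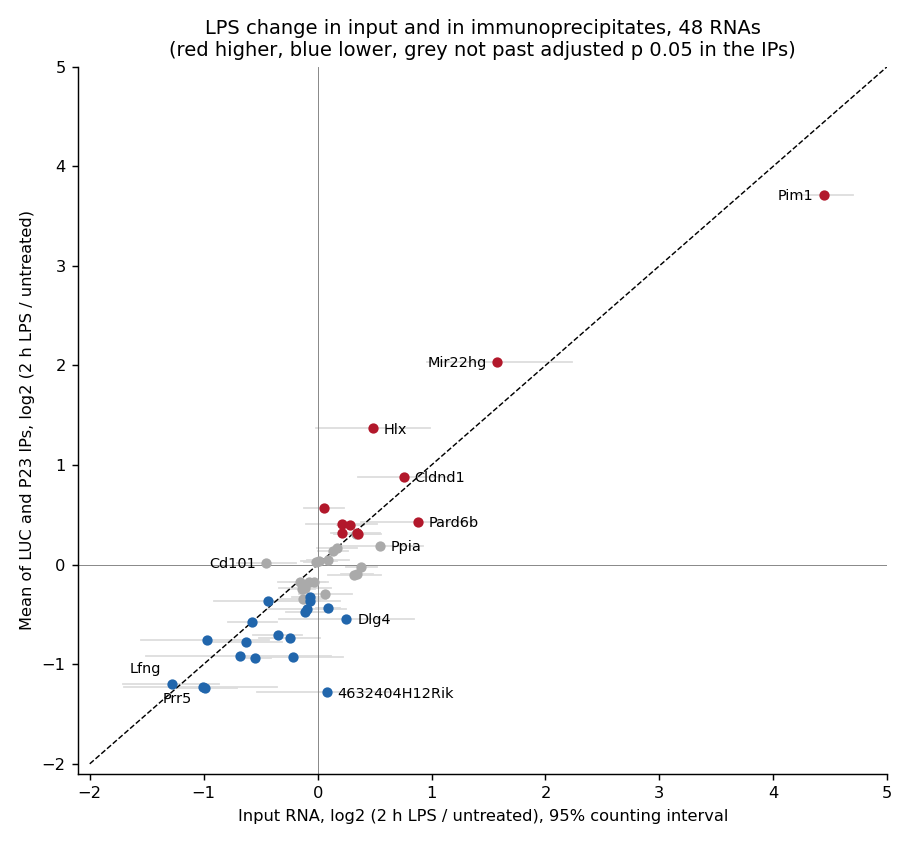
Log2 change at 2 h of LPS over untreated in the inputs (horizontal axis, 1 library per time point, grey bars are 95% counting intervals) and averaged over LUC and P23 IPs (vertical axis, 11 libraries) for 48 RNAs; red and blue points rose or fell in the IPs at an adjusted p of 0.05 or less (edgeR), grey points did not pass, and the dashed line marks equal change. Pim1 lies at 4.45 and 3.71, Hlx above the line at 0.48 and 1.37, and 4632404H12Rik below it at 0.08 and -1.28.

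Across the 50 RNAs with a ratio, the changes in inputs and IPs had a Pearson correlation of 0.90 and a Spearman correlation of 0.82, and a Pearson correlation of 0.84 over 49 RNAs without Pim1. These are descriptions across genes, which are not independent replicates. The IP change was lower than that of the inputs by a median of 0.15 on the log2 scale, which is less than the shifts of up to 0.21 that other scales gave to the IP median. It lay below the counting interval of the inputs for 19 RNAs, Pim1, Zbtb7b, Kif13a and Paf1 among them, and above it for Hlx, Cisd2, Ciao2a and Cd101. The counting intervals leave out variation between libraries. The replicate spread of the IPs had a median SD of 0.25 on the log2 scale, which also holds the counting error of the IPs. Of the 51 RNAs with a ratio or a bound, 27 had an input ratio larger in size than their own IP SD. That SD is for 1 library while a ratio takes 2, so this count cannot tell a change from library variation.

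E2f5 mRNA, which encodes an E2F transcription factor, is counted among the RNAs that rose, but its change differed between the antibodies, and the call of the mean was lost without any of 8 single libraries (adjusted p up to 0.071 from edgeR). It had 168 and 180 raw counts in the inputs, or 27.5 and 31.8 normalized counts. With LUC it was at 21.7, 23.3 and 23.9 at 0 h and at 59.7 and 56.1 at 2 h, and with P23 at 43.2, 47.3 and 42.2 and then at 28.7, 32.7 and 32.1. It was thus higher at 2 h with LUC and lower with P23, at log2 fold changes of 1.31 and -0.50, and the input ratio of 0.21 lay between them. In the test of the difference between both changes E2f5 passed as 1 of 52 RNAs (1.92%), and the choice of the rows by their 0 h values favors a difference of this sign.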

How the data were processed

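RNA of P23 IPs, LUC IPs and inputs of RAW 264.7 cells was sequenced by the authors (13 libraries). Raw counts per gene were deposited, made by the authors with Trimmomatic 0.33, FastQC 0.11.2, TopHat2 2.0.14 (GRCm38, Ensembl 83) and HTSeq 0.6.1 from unique reads without regard to strand. From these counts the authors derived the deposited log2 values, which are variance-stabilized. Columns of the authors' own comparisons, which hold fold changes and p-values, were not used. The authors removed 1 LUC library of 2 h. Columns of samples left unused: 0. Library totals are not given in the sources used here.

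The size factor of each library was recovered from its log2 values, which it reproduced to a relative deviation of 3.4e-14. Inputs were compared by exact Clopper-Pearson intervals (95%, scipy 1.17.1). IPs were compared with edgeR 4.0.16 (R 4.3.3, quasi-likelihood, 4 group means, these size factors kept, p-values adjusted by Benjamini-Hochberg over 52 RNAs, threshold 0.05). DESeq2 1.42.0 and limma 3.58.1 were alternatives. The methods describe the IPs as independent biological replicates, and the labels number them. The edgeR model was also run on simulated counts for 52 genes with a common dispersion. They left out the choice of rows and changes that differ between antibodies, so they cannot show how the model does with these. Named RNAs are the 10 highest and 10 lowest input ratios at 50 or more raw counts, RNAs below 50, RNAs called in both IPs, Gapdh, Ppia, Ptges3, the kinesins and examples of each role group. The RNAs and the 15 role groups were chosen with earlier results of these data known. All 52 identifiers matched GENCODE M21. Exons of other genes overlap some rows, by 1591 bases for Nsa2, 1471 for Rfx5 and 594 for Bcl2l2. What these overlaps did to the counts was not tested. Of the 52 symbols, 43 had a RefSeq promoter entry and 44 an annotated 3′UTR of at least 36 bases. The labels and the methods name different P23 antibodies, and whether they are the same clone was not settled. The values of 2 RNAs of the table are not reported here, and they are counted but not drawn.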

Additional observations from a re-analysis of the deposited data

Results flagged for a closer look

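The LPS change of E2f5 mRNA differed between the antibodies in a test of that difference. The rows were chosen for high P23 and low LUC values at 0 h, and the same values enter this difference, which pushes it below 0: its median over all 52 RNAs was -0.26. The p-value does not allow for that choice. The change with P23 minus that with LUC was a log2 of -1.81 (SE 0.27, quasi-likelihood test of edgeR, adjusted p = 0.00022), from means of 44.3 to 31.1 normalized counts with P23 and 23 to 57.9 with LUC. It was between -1.86 and -1.76 without each library in turn (adjusted p up to 0.0014 from edgeR), and it did not pass when the libraries were scaled to Gapdh and Ppia (-1.39, adjusted p = 0.060 from edgeR). Every P23 library of 2 h was below every P23 library of 0 h, and both LUC libraries of 2 h were above every LUC library of 0 h. 1810022K09Rik on the other strand overlaps 26 bases of the exons of E2f5, and its part in the result was not tested. No group held the 4 libraries that a check for single distant libraries needs.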

How the results depend on the processing

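Of the inputs, 2 RNAs were 2-fold higher and 2 were 2-fold lower. The lower count was 1 with an equal median over the table, 6 when scaled to Gapdh and Ppia or to summed counts, and 1 with a pseudocount of 1 normalized count. Differences of variance-stabilized values gave 1 and 0, a log2 of 0.5 as the fold gave 5 and 10, and asking that the near bound of the interval pass the fold gave 1 and 0. The 1 that stayed was Pim1 in both cases. Scaling to Gapdh and Ppia shifted the input median by -0.24 and summed counts by -0.17, and without Pim1 in the sums, an alternative chosen after seeing the data, by -0.01. Over 39 named RNAs and 272 values under alternatives, 13 values of 8 RNAs had another sign or 0, all with a main log2 ratio under 0.25 in size. For the mean of both IPs TMM gave 14 lower, and for LUC alone scaling to Gapdh and Ppia gave 5 higher and 10 lower and summed counts 14 lower. For P23 alone an equal median gave 13 higher, TMM 14 higher, and scaling to Gapdh and Ppia 11 lower. Gm12693 turned to 0.28 with P23 under TMM (adjusted p = 0.037 from edgeR). Without each IP library in turn the counts for both IPs were 6 to 12 higher and 13 to 22 lower, for LUC 5 to 9 and 1 to 11, and for P23 3 to 5 and 14 to 19. The lowest counts for both IPs came without LUC 2 h replicate 2. The cause of these differences was not tested. The replicate block gave 8 higher and 21 lower for both IPs, 6 and 5 for LUC and 4 and 17 for P23. Same-numbered libraries deviated together (correlation over 0.1) in 3 of 15 pairs (0.41 at most). With 2 or 3 libraries per group such correlations cannot decide on pairing, and the main model was left unpaired. Whether same-numbered libraries share a culture or extract was not tested.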
